A study of Arabidopsis thaliana with 4 samples.

Results

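The 8 genes described here make and destroy abscisic acid (ABA) in Arabidopsis, and were followed in RNA that came down with the Polycomb protein CURLY LEAF (CLF). They were chosen by name, with earlier results of these data known. They are 4 synthesis genes (ABA1, NCED3, ABA2 and AAO3) and 4 catabolism genes (CYP707A1 to CYP707A4). A matched locus in all libraries was found for 28608 genes, among them 7 of the 8. There were 2 CLF RIP libraries, from clf-28 plants carrying Myc-CLF, and 2 control RIP libraries, from wild-type plants. All plants were Columbia (Col-0), 3 weeks old, and grown on diluted MS medium with 30 g/L sucrose under 16 hours of light at 22 °C and 8 hours of dark at 18 °C. In RNA immunoprecipitation (RIP), nuclei of crosslinked plants were sonicated, an anti-Myc antibody was added, and the RNA left on the beads was sequenced. The labels name neither the promoter that drives Myc-CLF nor the number of lines or of plants per library. The deposited tables are named for the other group in each case. Groups were taken from the labels, and every direction below turns if these are wrong.

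ABA is the hormone by which plants close their stomata and acclimate under drought and by which seeds stay dormant. Its level is set by synthesis and by breakdown. In plastids ABA1, zeaxanthin epoxidase, makes epoxycarotenoids, and NCED3 cleaves them to xanthoxin, the step regarded as limiting in water-stressed leaves. In the cytosol ABA2, a short-chain dehydrogenase, turns xanthoxin into abscisic aldehyde, and AAO3, an aldehyde oxidase, turns that into ABA. The CYP707A genes encode cytochrome P450 enzymes that hydroxylate ABA and so start its breakdown. CLF is a histone methyltransferase of Polycomb repressive complex 2.

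The values were FPKM, which is scaled to transcript length and library size. The library size behind them was estimated at 4.27 and 4.26 M fragments for the CLF RIP and at 10.0 and 9.71 M for the control RIP, so that 1 read was worth 2.31 times as much in the CLF RIP. Across 14799 genes tested, the Pearson correlation of log2(FPKM + 1) was 0.793 within the CLF RIP pair and 0.874 within the control RIP pair, and 0.735 to 0.748 between groups. Separate plants for each library are not stated, so the spread between these libraries may be technical. The limma p-values set a gene's difference against that spread, moderated by the spread of all genes tested. No input RNA was analysed here, so a higher value in the CLF RIP cannot be told apart from more of that RNA in the plants. Green tissue markers were abundant, and limma called 3 of 4 lower, against 0.622% of all genes tested. Their summed level was 545 and 538 FPKM in the CLF RIP libraries, against 1706 and 1688 FPKM in the control RIP libraries. Of 5 root markers, CASP1 and EXPA7 were listed at 0 in every library and COBL9 and NRT2.1 stayed under 1 FPKM, while PYK10 lay between 2.72 and 4.43 FPKM. The flower marker genes AP3 and PI summed to 5.50 and 7.65 FPKM in the CLF RIP and to 11.3 and 19.9 FPKM in the control RIP. Most of this was PI, as AP3 had at most 1.32 FPKM in any library. Neither gene was called by limma (adjusted p 0.187 for AP3 and 0.224 for PI). The part of tissue make-up in the results below was not tested.

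Of the 8 genes, 7 had a matched locus in all 4 libraries and 6 passed the filter of at least 1 FPKM in at least 2 libraries. ABA2 lacked a matched locus in CLF RIP replicate 1, and CYP707A4 stayed below 1 FPKM throughout. With limma on log2(FPKM + 1) and Benjamini-Hochberg adjustment over all genes tested, 0 of the 6 genes passed the threshold of 0.05, and 3 of 6 (NCED3, AAO3 and CYP707A1) had an unadjusted p under 0.05. Among all genes tested 1.36% passed the adjusted threshold, 0.743% higher (110 genes) and 0.622% lower (92 genes), and 24.7% had an unadjusted p under 0.05. Of these calls 54.5% were higher. Quantile normalization gave 45.0%, scaling by the median of ratios 41.2%, and leaving out structural RNA genes 35.9%. Both CLF RIP values lay above both control RIP values for 3 of the 6 genes and below them for 2, against 40.4% and 18.9% of all genes tested. The median log2 fold change was 0.83 for the 6 genes and 0.25 for all genes tested. Adding 1 FPKM shrinks the folds of low genes.

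**Figure D1:**
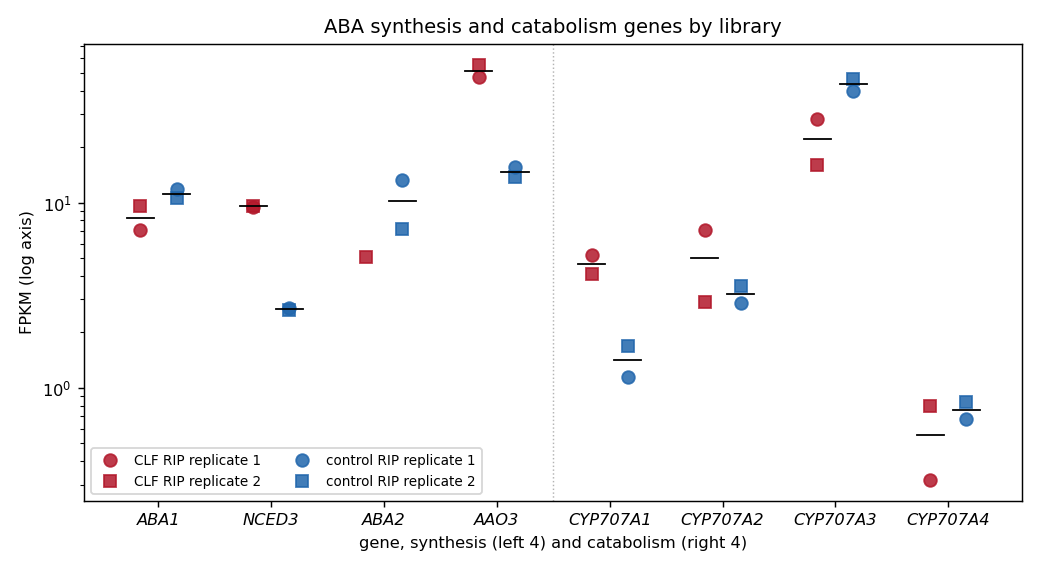
FPKM (log axis) of the 8 genes in each library, with CLF RIP in red and control RIP in blue, circles for replicate 1, squares for replicate 2 and a black line at each mean of 2 libraries. NCED3, AAO3 and CYP707A1 lie higher in both CLF RIP libraries, CYP707A3 and ABA1 lower, and ABA2 has no matched value in CLF RIP replicate 1.

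The synthesis genes did not share a direction. ABA1 (AT5G67030) had 7.07 and 9.52 FPKM in the CLF RIP libraries, against 11.8 and 10.5 FPKM in the control RIP libraries. Both CLF RIP values were below both control values, but the gap between 9.52 and 10.5 FPKM was smaller than the gap within the CLF RIP pair. The log2 fold change was -0.40 (SE 0.25), with an adjusted p of 0.384. In 3 libraries its locus ran on chromosome 5 from 26753510 to 26757236 in TAIR10, and in CLF RIP replicate 2 it began at 26753452.

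NCED3 (AT3G14440), the dioxygenase gene that drought induces, had 9.46 and 9.60 FPKM in the CLF RIP libraries, against 2.70 and 2.64 FPKM in the control RIP libraries. The libraries of each group lay within a few percent of each other, and the groups were far apart. Mean levels were 9.53 ± 0.098 FPKM in the CLF RIP and 2.67 ± 0.042 FPKM in the control RIP (SD, n = 2 each), a ratio of 3.57. These SDs are smaller than the counting error given below, so they understate the uncertainty of the values. NCED3 had a log2 fold change of 1.52 (SE 0.18), or 1.27 above the median of all genes. Its unadjusted p was 0.00174 and its adjusted p 0.0723 by limma, which missed the threshold, and 352 of the 14799 genes had a p at or below it. When the fit used only the 2462 genes that carried their own identifier in all libraries and passed the filter, NCED3 had an adjusted p of 0.00900. That fit called 19.8% of its genes (488 of 2462), so a call there is common, and NCED3 was the one gene of the 8 that it tested.

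NCED3 has no intron, and its locus had the same span in all 4 libraries, on chromosome 3 from 4831288 to 4833599, so its values could be turned back into fragments. They came to 85 and 86 fragments in the CLF RIP libraries and to 57 and 54 in the control RIP libraries, each within 0.02 of a whole number. More fragments were thus counted in the CLF RIP libraries although these were scaled to fewer fragments in all. The exact 95% Poisson intervals were 7.56 to 11.7 and 7.68 to 11.9 FPKM in the CLF RIP, against 2.05 to 3.50 and 1.99 to 3.45 FPKM in the control RIP. The intervals of the groups did not overlap. They cover counting error only, and fragments copied in the amplification of a library are not independent.

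ABA2 (AT1G52340) was listed under its own identifier on chromosome 1 from 19489794 to 19491648 in CLF RIP replicate 2 at 5.07 FPKM and in control RIP replicate 2 at 7.19 FPKM. These values had a common value of 1 read at 21 and 68 fragments. In control RIP replicate 1 the locus ran on to 19491997 and was listed at 13.3 FPKM. In CLF RIP replicate 1 a locus of 6.74 FPKM ran to 19492769, the end at which other libraries list the next gene, AT1G52342, and it overlapped ABA2 by only 62.3%. With the overlap minimum lowered to 0.5, which takes in that longer locus, ABA2 had a log2 fold change of -0.66 (SE 0.38) and a limma adjusted p of 0.358. The control RIP values alone differed 1.85-fold, so no direction is given for ABA2.

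AAO3 (AT2G27150), the gene of the last step, had 47.5 and 55.5 FPKM in the CLF RIP libraries, against 15.6 and 13.7 FPKM in the control RIP libraries. The lowest CLF RIP value was well above the highest control value. AAO3 averaged 51.5 ± 5.63 FPKM in the CLF RIP and 14.6 ± 1.32 FPKM in the control RIP (SD, n = 2 each), a ratio of 3.52. Its log2 fold change of 1.75 (SE 0.21) was 1.50 above the median of all genes. Its order against NCED3 depends on the added 1 FPKM, since the ratio of means was slightly higher for NCED3. Its unadjusted p was 0.00163 and its adjusted p 0.0723, which missed the threshold. All 4 libraries listed the same locus, on chromosome 2 from 11601754 to 11608450. AT2G27160, a gene inside this span, was listed at 0 in every library. The library kit is not stated to keep strand, so reads of AAO3 and of any gene across it cannot be told apart.

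Among the catabolism genes, CYP707A1 and CYP707A3 lay on opposite sides. CYP707A1 (AT4G19230) had 5.23 and 4.09 FPKM in the CLF RIP libraries, against 1.14 and 1.68 FPKM in the control RIP libraries. The groups did not overlap. The ratio of mean levels was 3.30 and the log2 fold change 1.23 (SE 0.24), with an unadjusted p of 0.00907 and an adjusted p of 0.117. Its locus, on chromosome 4 from 10521379 to 10523961, was the same in all libraries. Its transcript can be no longer than that span, which bounds the fragments at 53 and 41 in the CLF RIP and at 27 and 39 in the control RIP. The CYP707A1 values thus rest on few fragments.

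CYP707A2 (AT2G29090), best known for removing ABA from imbibed seeds, had 7.13 and 2.91 FPKM in the CLF RIP libraries, against 2.87 and 3.56 FPKM in the control RIP libraries. The groups overlapped, and the CLF RIP libraries differed 2.45-fold from each other. The log2 fold change of 0.42 (SE 0.44, adjusted p 0.584) became 0.95 when CLF RIP replicate 2 was left out and -0.10 when replicate 1 was. CLF RIP replicate 1 therefore decided its sign. Its locus on chromosome 2 began at 12494836 in that library and at 12494851 in the others, and ended at 12499723 in all.

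CYP707A3 (AT5G45340), a main ABA-degrading gene of vegetative tissue, had 28.2 and 15.9 FPKM in the CLF RIP libraries, against 40.2 and 46.6 FPKM in the control RIP libraries. Both CLF RIP values lay below both control values. Mean levels were 22.0 ± 8.73 FPKM in the CLF RIP and 43.4 ± 4.48 FPKM in the control RIP (SD, n = 2 each). The log2 fold change was -0.996 (SE 0.35), with a p of 0.0540 and an adjusted p of 0.209. Leaving out CLF RIP replicate 1 gave -1.39 and leaving out replicate 2 gave -0.60, so the size depended on the library. The locus lay on chromosome 5 between 18368302 and 18371018, with starts and ends that differed by library. The longest, in CLF RIP replicate 1, reached beyond the annotated gene on the side of the lower coordinates.

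CYP707A4 (AT3G19270) was the least abundant of the 8 genes, with 0.317 and 0.795 FPKM in the CLF RIP, against 0.675 and 0.837 FPKM in the control RIP libraries. The groups overlapped. Its locus, on chromosome 3 from 6673727 to 6676520, was listed under its own identifier in all libraries. The values shared a common value of 1 read at 2 and 5 fragments in the CLF RIP and at 10 and 12 in the control RIP. The Poisson intervals of all 4 libraries overlapped, which is not a test of a difference. The values rest on few fragments, and no direction is given for CYP707A4.

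**Figure D2:**
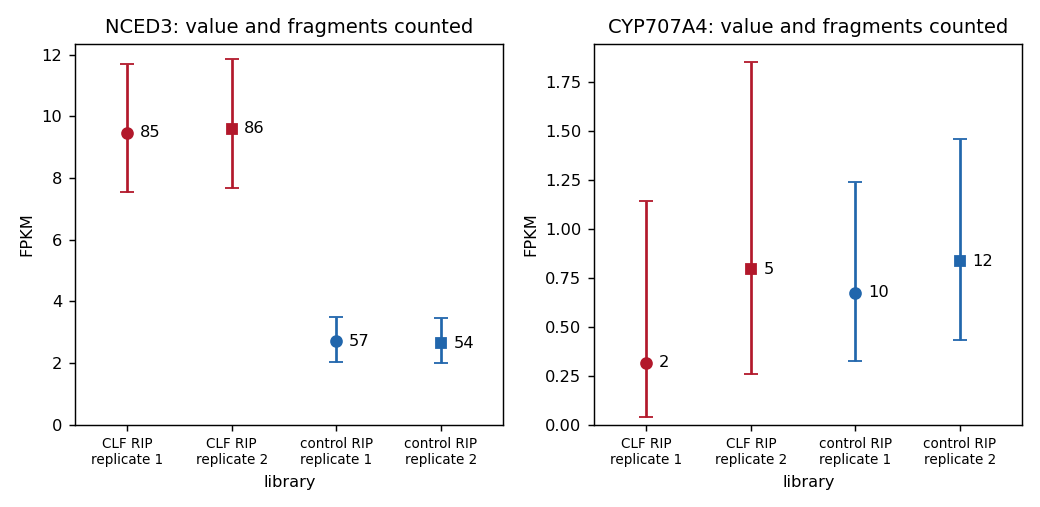
FPKM of NCED3 and CYP707A4 in each library with exact 95% Poisson intervals (counting error only), and the number of fragments behind each value beside its point. The NCED3 intervals of the CLF RIP (red) and control RIP (blue) are apart, while those of CYP707A4, which rest on 2 to 12 fragments, overlap.

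By mean FPKM, AAO3 led in the CLF RIP, followed by CYP707A3, NCED3, ABA1, CYP707A2, CYP707A1 and CYP707A4. There NCED3 and ABA1 overlapped in their values, as did ABA1 and CYP707A2, and CYP707A2 and CYP707A1. In the control RIP, CYP707A3 led, followed by AAO3, ABA1, ABA2, CYP707A2, NCED3, CYP707A1 and CYP707A4. There ABA1 and ABA2 overlapped in their values, and the other neighbours did not. These orders describe 2 libraries per group and were not tested.

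Ratios of levels within a library do not depend on how it was scaled. For each 100 FPKM summed over the 4 CYP707A genes, NCED3 had 23.2 and 40.6 FPKM in the CLF RIP libraries, against 6.02 and 5.02 FPKM in the control RIP libraries. The log2 ratio of NCED3 to summed CYP707A differed by 2.48 between groups, with both CLF RIP values above both control values. NCED3 was the only synthesis gene set against the sum, so the ratio does not describe ABA1, ABA2 or AAO3. CYP707A3 made up most of the sum in every library, so the ratio largely restates the differences of NCED3 and CYP707A3 given above. Against CYP707A1 alone the log2 ratio of NCED3 was 0.86 and 1.23 in the CLF RIP, against 1.24 and 0.65 in the control RIP, and the groups overlapped. An exact two-sided permutation test of 2 against 2 libraries cannot give a p below 0.333, so that test can make no call on these ratios, and no other test was run on them.

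CYP707A3 made up 69.0% and 67.1% of the summed CYP707A level in the CLF RIP libraries, against 89.6% and 88.5% in the control RIP libraries. CYP707A1 made up 12.8% and 17.3% in the CLF RIP, against 2.54% and 3.20% in the control RIP. CYP707A2 made up 17.4% and 12.3% in the CLF RIP, against 6.38% and 6.76% in the control RIP. The shares of a library add up to its whole, so a lower CYP707A3 share goes with higher shares of the others. The FPKM of CYP707A2 itself overlapped between the groups. CYP707A4 made up 0.776% and 3.36% in the CLF RIP, against 1.50% and 1.59% in the control RIP, where the groups overlapped.

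**Figure D3:**
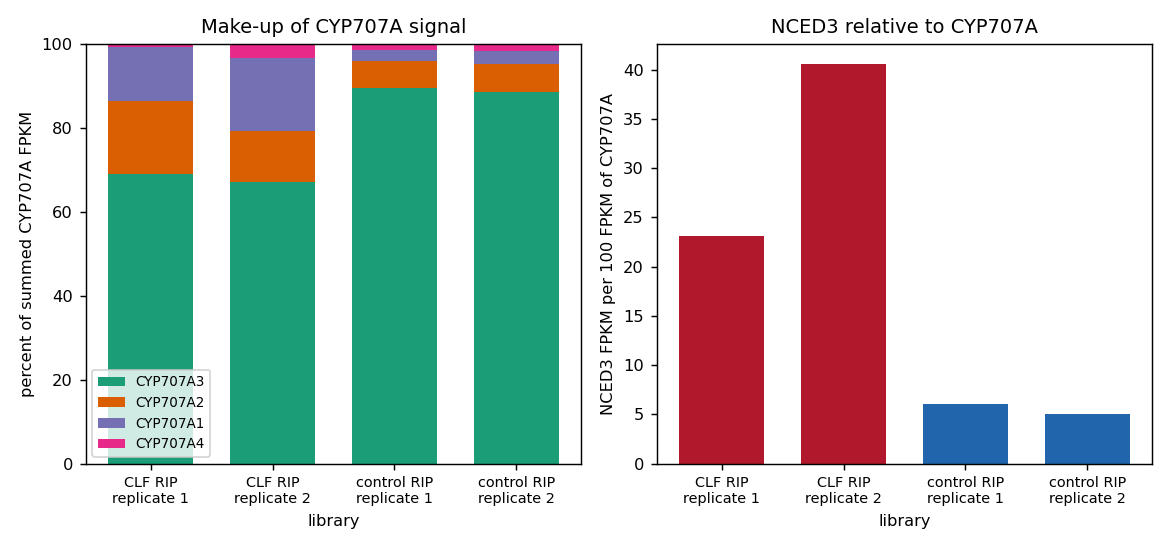
Left, the percent of summed CYP707A FPKM from each of the 4 genes in each library. Right, NCED3 FPKM per 100 FPKM of summed CYP707A, with CLF RIP in red and control RIP in blue. CYP707A3 holds 67.1% and 69.0% in the CLF RIP libraries and more in the control RIP libraries, and NCED3 is higher relative to CYP707A in both CLF RIP libraries.

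Other genes of the pathway, taken broadly to include carotenoid metabolism, were described by 4 lists of 40 genes in all. Across these lists limma called 0 of the 30 genes tested, against 1.36% of all genes. An unadjusted p under 0.05 was found for 5 of the 30, against 24.7% of all genes. Of 12 genes of carotenoid metabolism, not all of which lead towards ABA, 10 were tested, with 8 above and 2 below 0. Their median log2 fold change was 0.33, near the 0.25 of all genes, of which 63.1% lay above 0. The split changed with scaling, as did the share of all genes above 0. It was 6 of 10 under quantile normalization (51.1% of all genes) and 6 of 10 under the median of ratios (50.5%). Without structural RNA genes it was 5 of 10 (42.8%). The members with the smallest p were ABA4, needed for neoxanthin, and NPQ1, the violaxanthin de-epoxidase. ABA4 had 5.15 and 5.82 FPKM in the CLF RIP, against 3.80 and 3.16 FPKM in the control RIP (adjusted p 0.228). NPQ1 had 33.5 and 44.4 FPKM in the CLF RIP, against 25.9 and 15.4 FPKM in the control RIP (adjusted p 0.232).

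Of 10 genes of the other NCED enzymes, related dioxygenases, aldehyde oxidases and ABA3, 4 were tested, with a median of 0.30. All 4 lay above 0 as deposited, against 63.1% of all genes. Under quantile normalization 3 of them did (51.1% of all genes) and under the median of ratios 2 (50.5%). Without structural RNA genes 2 did (42.8%). NCED2 and NCED6 were listed at 0 in every library, and NCED5, NCED9 and AAO4 stayed below 1 FPKM, so that NCED3 was the one NCED gene of the 5 listed here that reached 1 FPKM. AAO1, a relative of AAO3, had 4.69 and 4.61 FPKM in the CLF RIP, against 2.19 and 2.13 FPKM in the control RIP. Its log2 fold change was 0.84 (SE 0.18) and missed the threshold (adjusted p 0.127). ABA3, which sulfurates the molybdenum cofactor that AAO3 needs, had 12.7 and 13.7 FPKM in the CLF RIP, against 10.5 and 8.68 FPKM in the control RIP (adjusted p 0.313).

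Of 8 genes of ABA conjugation and transport, all were tested, with 5 above and 3 below 0 and a median of 0.35. Of all genes 63.1% lay above 0. Under quantile normalization 4 of the 8 lay above 0 (51.1% of all genes) and under the median of ratios 5 (50.5%). Without structural RNA genes 4 did (42.8%). UGT71C5, which glucosylates ABA, had 17.9 and 18.0 FPKM in the CLF RIP, against 10.7 and 10.9 FPKM in the control RIP. Its log2 fold change was 0.69 (SE 0.19, adjusted p 0.165), and its adjusted p was 0.0221 in the fit of genes with their own identifier, which called 19.8% of its genes and tested 3 genes of these lists. DTX50, an ABA exporter, had 5.81 and 6.42 FPKM in the CLF RIP, against 3.74 and 2.55 FPKM in the control RIP (adjusted p 0.180).

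Of 10 genes for ABA-activated kinases and transcription factors, 8 were tested, with 5 above and 3 below 0 and a median of 0.47. Of all genes 63.1% lay above 0. Under quantile normalization 5 of the 8 lay above 0 (51.1% of all genes) and under the median of ratios 5 (50.5%). Without structural RNA genes 4 did (42.8%). The kinase gene SNRK2.3 had 68.6 and 39.6 FPKM in the CLF RIP, against 138 and 133 FPKM in the control RIP. Its log2 fold change was -1.36 (SE 0.31) and its adjusted p 0.136. ABF1, which encodes a bZIP factor that binds ABA-responsive promoters, had 72.9 and 28.2 FPKM in the CLF RIP, against 8.71 and 10.0 FPKM in the control RIP. Its log2 fold change of 2.16 (SE 0.54, adjusted p 0.148) was the largest of the 30, with a wide gap within the CLF RIP pair.

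**Figure D4:**
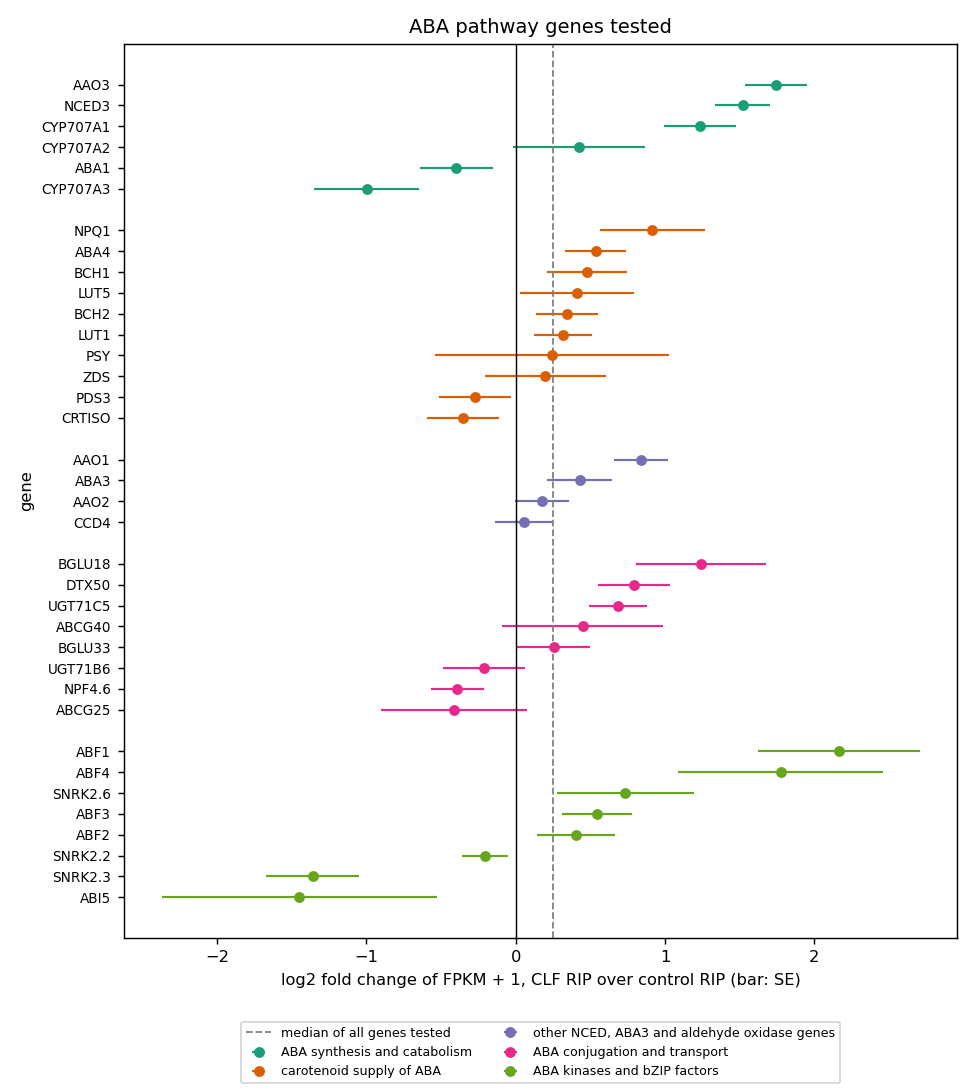
Log2 fold change of FPKM + 1 in CLF RIP over control RIP with its SE for the tested genes of the 8 and of the 4 pathway lists, grouped by list, with a dashed line at the median of all genes tested (0.25). AAO3 and NCED3 lie at 1.75 and 1.52 while 8 of the 10 carotenoid genes lie above 0, as do 63.1% of all genes. Under other scalings (not drawn) 5 or 6 of the 10 lie above 0, against 42.8% to 51.1% of all genes.

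The 3 genes whose pattern was most like that of NCED3, by distance between log2(FPKM + 1) profiles centred over the 4 libraries, were ABCC2 (distance 0.0567), AT3G25680 (0.0670) and the myosin gene VIIIA (AT1G50360, 0.0778). They were picked from 6592 genes with a mean level within 1 log2 unit of NCED3, of which 40 lay within a distance of 0.25. With only 4 libraries the profile is mostly the difference between the groups. ABCC2 (AT2G34660), a vacuolar transporter gene, had 14.1 and 13.5 FPKM in the CLF RIP, against 4.24 and 4.15 FPKM in the control RIP.

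Each of the 6 genes tested kept the sign of its fold change under quantile normalization, under scaling by the median of ratios, and without structural RNA genes. These 3 scalings moved the median of all genes from 0.25 to 0.02, 0.01 and -0.12, and the log2 fold changes of the 6 genes moved down too. NCED3 lay at 1.31, 1.29 and 1.19, AAO3 at 1.45, 1.47 and 1.34, and CYP707A3 at -1.29, -1.27 and -1.42, in that order of scalings.

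**Figure D5:**
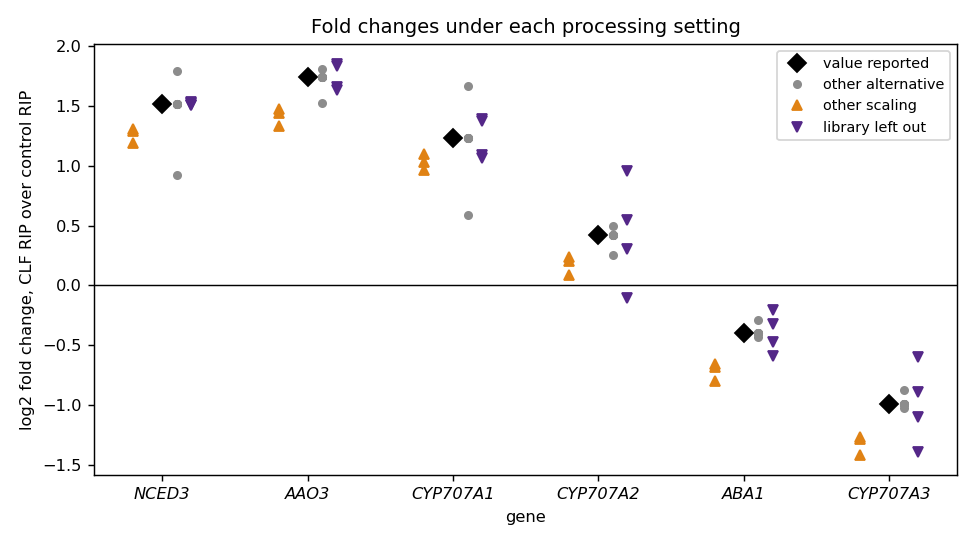
Log2 fold changes of the 6 genes tested, CLF RIP over control RIP, as reported (black), under other scalings (orange), without 1 library (purple) and under the other alternatives (grey). All points of NCED3, AAO3 and CYP707A1 lie above 0, all points of ABA1 and CYP707A3 lie below it, and CYP707A2 crosses it without CLF RIP replicate 1.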

How the data were processed

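The authors deposited, for each of 4 libraries, FPKM by locus. The submitters' processing notes name Trimmomatic, TopHat2 2.0.10 and TAIR10. The sources used here do not say which program computed the FPKM. Loci carried a gene identifier or a serial number. A serial locus of at least 300 bp was given to a gene at a reciprocal overlap of at least 0.8 with its span, taken from the tables or else from RefSeq TAIR10.1, unless its value reached that of 1 read on 75 bp. RefSeq held 21363 of 21777 nuclear identifiers. Coordinates are those of the tables, counted from 1.

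The test was limma 3.58.1 (R 4.3.3) on log2(FPKM + 1) (trend and robust prior, group as the term), on genes that reached 1 FPKM in 2 or more libraries, with p-values adjusted by Benjamini-Hochberg. The fit was tested on simulated data. Fragments were recovered from the relation of value to span in serial loci of 450 to 1500 bp with under 30 reads, of which 77.7% came out whole within 0.1. No count test was run, because transcript lengths are needed for spliced genes and were not analysed here. Alternatives changed the pseudocount, filter, scaling, prior, pairing, overlap and libraries. Genes named were the 8 members, the genes past the threshold or else the 2 smallest p of each list, and the 3 most like NCED3. The members and lists were chosen with earlier results of these data known. Other steps ran in Python 3.11.15, with scipy 1.17.1, numpy 2.4.6, pandas 2.3.3 and matplotlib 3.10.9.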

Additional observations from a re-analysis of the deposited data

How the results depend on the processing

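Of the log2 fold changes of the 6 genes tested, CYP707A2 alone turned, to -0.10 without CLF RIP replicate 1, and NCED3 alone passed the threshold, at 1.52 (adjusted p 0.00900) with own identifiers only, where 1 of 1 of the 8 genes and 1 of 3 other pathway genes (UGT71C5) were called, against 19.8% of all genes in that fit. Over all alternatives the adjusted p ran from 0.00900 to 0.424 for NCED3 and from 0.0594 to 0.424 for AAO3. Leaving out each library in turn gave log2 fold changes of 1.51 to 1.53 for NCED3, 1.64 to 1.86 for AAO3, 1.07 to 1.40 for CYP707A1, -0.10 to 0.95 for CYP707A2, -0.59 to -0.21 for ABA1 and -1.39 to -0.60 for CYP707A3, and 0 calls among them and among the other pathway genes. The difference in the log2 ratio of NCED3 to summed CYP707A was then 2.07 to 2.88, and 2.15 with a pseudocount of 1. The NCED3 fragments were 85, 86, 57 and 54 also with depth fitted in each library alone. Among all genes tested, 110 were called higher and 92 lower. The counts were 42 and 43 at a pseudocount of 5, 4 and 3 without a filter, 40 and 27 without the trend and robust prior, 65 and 116 without structural RNA genes, 156 and 145 at an overlap of 0.5, and 284 and 204 with own identifiers only. Without 1 library they were 0 to 1 and 0 to 4. With the replicate number as a block, limma called 0 and 0, and 2713 genes had an unadjusted p under 0.05. The deviations of same-numbered libraries from their group means had a correlation of 0.019, and nothing in the labels pairs them. The causes were not tested. Genes without a matched locus or under the filter in a setting have no value there, such as ABA1 and CYP707A3 at an overlap of 0.95 and all but NCED3 with own identifiers only. The values of CYP707A4, at 2 to 12 fragments, and of CYP707A1 rest on few fragments.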

Other observations

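Some genes of the pathway whose CLF RIP libraries were more than 1.5-fold apart are given here, picked after their values were seen. PSY, which encodes phytoene synthase at the entry to carotenoids, had 51.4 and 11.8 FPKM in the CLF RIP, against 20.0 and 21.8 FPKM in the control RIP. ABF4, a bZIP factor gene, had 56.6 and 199 FPKM in the CLF RIP, against 31.5 and 29.3 FPKM in the control RIP. ABI5, a bZIP factor gene of seeds and seedlings, had 14.5 and 2.65 FPKM in the CLF RIP, against 30.2 and 12.5 FPKM in the control RIP. BGLU18, which frees ABA from its glucose ester, had 71.0 and 113 FPKM in the CLF RIP, against 27.2 and 51.0 FPKM in the control RIP. The groups overlapped for PSY and ABI5 and did not for ABF4 and BGLU18. Among all genes tested, both CLF RIP values lay above both control RIP values for 40.4% and below them for 18.9%. None of the 4 genes passed the limma threshold (adjusted p 0.865 for PSY, 0.233 for ABF4, 0.396 for ABI5 and 0.207 for BGLU18).

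Loci of at most 460 bp with serial numbers lay inside the spans of some of the 8 genes. There were 13 and 13 of them in the CLF RIP libraries, against 10 and 9 in the control RIP libraries. In all, 67357 and 67210 loci were listed in the CLF RIP, against 67292 and 67135 in the control RIP. How many such loci lie inside other genes was not analysed, so these counts have no background. CYP707A2 held 8 and 6 in the CLF RIP, against 5 and 4 in the control RIP, and ABA2 held 4 and 3 in the CLF RIP, against 3 and 3 in the control RIP. ABA1 and NCED3 held 0 in every library. Their values were not added to those of the genes, and whether they lie in introns was not analysed here.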
